A study of Mus musculus with 38 samples.

Results

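Isolated narrow distal SOX2 sites are the short, scattered intervals of the SOX2 site list used in this study. The intervals of that list were sorted along each chromosome and chained where the gap between neighbours was at most 12500 bp. An interval was taken if its chain held 1 or 2 intervals, its width was below 300 bp, it overlapped no HSF1 or HSF2 binding site of the study, and it lay over 1 kb from every protein-coding transcript start of the GENCODE M21 basic annotation on mm10. This gave 8508 of the 15081 SOX2 sites, or 56.4%, of which 6756 had no neighbour within the gap and 1752 were in chains of 2. The rule used the positions and widths of the SOX2 intervals and the HSF1 and HSF2 sites, and not the A and M values. Width and overlap with an HSF site both went with SOX2 signal, as given below. Comparisons of level with the other SOX2 sites are therefore not independent of the rule. The nearest other SOX2 site was a median of 40401 bp away (quartiles 15576 and 99951 bp), the nearest coding transcript start a median of 36694 bp away, and the median width was 174 bp (24 to 299 bp).

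The study compared how transcription factors occupy their sites in dividing and non-dividing JM8 cells, mouse embryonic stem cells kept with the cytokine LIF. SOX2 was profiled by CUT&Tag, in which a protein A and Tn5 transposase fusion is directed to an antibody on the factor and inserts sequencing adapters beside it. Of 38 libraries in 19 conditions, 4 were used here, 2 from wild type asynchronous cells (A) and 2 from wild type mitotic cells (M). The M cells had been held for 6 h in 50 ng/ml nocodazole, which blocks the spindle, and were collected by shake-off. The A cells received no such block, so phase and drug cannot be told apart. All values are from a single cell line. Drosophila cells were added to each sample as a spike-in.

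SOX2 binds the minor groove of DNA through its HMG domain and bends it. Its core recognition sequence is CATTGT or close variants such as CTTTGT. In embryonic stem cells SOX2 often binds beside OCT4, which recognises the octamer ATGCAAAT, on a composite element made of the SOX core, 1 base and the octamer. Most SOX2 sites in such cells lie in distal enhancers. SOX2 is also known for staying on chromosomes in mitosis, when many other factors leave them.

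The composite element was rare in its exact form among the isolated narrow distal sites. Only 6 of the 8508 carried it, and the 3 of these with the highest signal are shown first because they hold the sequence best known for SOX2 and OCT4. Sequences are from the RefSeq GRCm38.p6 genome, plus strand, 5′ to 3′, and capitals mark the composite element.
chr14:95758193-95758466, nearest to 4921530L21Rik: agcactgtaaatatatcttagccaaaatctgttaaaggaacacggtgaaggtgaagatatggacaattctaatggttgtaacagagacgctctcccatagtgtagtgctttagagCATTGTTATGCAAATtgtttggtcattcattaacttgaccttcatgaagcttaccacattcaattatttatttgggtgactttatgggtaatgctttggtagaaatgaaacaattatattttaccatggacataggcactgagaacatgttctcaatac
chr15:59174344-59174567, nearest to Mtss1: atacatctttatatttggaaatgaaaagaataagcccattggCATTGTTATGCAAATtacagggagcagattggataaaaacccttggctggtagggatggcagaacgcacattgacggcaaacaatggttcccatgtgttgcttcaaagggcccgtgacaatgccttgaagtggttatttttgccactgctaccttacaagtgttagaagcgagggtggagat
chr3:99221316-99221439, nearest to Tbx15: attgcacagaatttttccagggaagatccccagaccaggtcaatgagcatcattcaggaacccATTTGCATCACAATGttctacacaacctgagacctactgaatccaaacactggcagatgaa
The next 3 intervals had the highest mean of A and M signal among all 8508 sites. They contain neither CATTGT nor CTTTGT on either strand, so they have no capitals.
chr2:5379155-5379278, nearest to Ccdc3: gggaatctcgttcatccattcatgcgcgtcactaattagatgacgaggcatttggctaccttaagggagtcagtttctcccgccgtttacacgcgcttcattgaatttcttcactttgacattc
chr9:3007427-3007475, nearest to Gm11168: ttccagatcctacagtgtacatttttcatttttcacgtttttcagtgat
chr7:142405112-142405335, nearest to Ctsd: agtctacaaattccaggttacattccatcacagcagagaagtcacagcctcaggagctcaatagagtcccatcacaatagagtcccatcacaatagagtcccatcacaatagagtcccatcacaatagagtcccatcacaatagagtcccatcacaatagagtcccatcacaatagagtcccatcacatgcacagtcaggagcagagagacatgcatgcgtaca
The following sites had the largest M over A ratios, and then the smallest, among sites whose mean signal was at or above the median. Capitals mark CATTGT or CTTTGT in either orientation.
chr7:14049822-14049995, nearest to Sult2a4: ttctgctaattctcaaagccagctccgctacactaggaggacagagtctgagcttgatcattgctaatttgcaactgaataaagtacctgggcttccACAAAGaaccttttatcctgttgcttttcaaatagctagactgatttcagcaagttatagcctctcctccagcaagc
chr7:108760475-108760573, nearest to Olfr513: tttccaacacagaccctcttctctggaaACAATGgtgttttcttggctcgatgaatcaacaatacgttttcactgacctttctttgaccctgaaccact
chr2:75855888-75855986, nearest to Agps: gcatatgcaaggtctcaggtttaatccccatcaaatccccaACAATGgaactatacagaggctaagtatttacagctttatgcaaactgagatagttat
chr10:81542923-81542946, nearest to Gna11: aaccaaggtcatggtcacctcctc
The last pair are the site at 0 in A with the highest M signal and the site at 0 in M with the highest A signal, with capitals as before.
chr15:81985397-81985445, nearest to 1700029P11Rik: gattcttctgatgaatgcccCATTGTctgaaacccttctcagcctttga
chr8:68254813-68254836, nearest to Sh2d4a: aacagctgaaatgggttctgagag

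Each value below is coverage averaged by the authors over 2 libraries and over the interval, in scaled coverage per base. No separate library values were used, so the variation between libraries is unknown and A and M were compared without a test. A 95% interval given for a median comes from order statistics over sites, and that for a share is a Wilson interval. They describe the sites in these averaged tracks and say nothing of other cultures. The values themselves carried information on depth. In A the value multiplied by the width was a multiple of 0.5 at 99.99% of the 15081 sites (tolerance 0.0001 of a step), which is what the mean of 2 unscaled libraries gives. In M, all 56 sites whose value multiplied by width was below 10 were sums of steps of 0.1237 and 0.1374 (tolerance 2e-05), so the weight of 1 read (or fragment, which the values do not separate) in A was 3.64 to 4.04 times that in M. At the median site, A then rested on at least 12 reads over both libraries and M on at least 52.8. PCR duplicates were kept, so these are not independent molecules. The values also showed that the tracks had 50-bp bins. All 402 sites of 24 bp that fell within a single such bin had an A value on a step of 0.5, against 30.7% of the 345 that crossed a bin edge. For the 1157 sites below 50 bp (13.6%), the value therefore came from 1 or 2 bins that reach beyond the site.

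The median SOX2 signal at the isolated narrow distal sites was 6.00 in A (95% interval 5.80 to 6.16) and 7.25 in M (7.05 to 7.47). The lower and upper quartiles were 2.15 and 13.1 in A and 3.06 and 16.3 in M. All other kinds of SOX2 site had higher medians. Isolated distal sites of 300 bp or wider had 15.9 in A and 19.8 in M, distal sites in chains of 3 or more had 11.9 and 13.02, and sites within 1 kb of a coding start had an A median with an interval of 11.2 to 13.2 and an M median of 15.9. The highest medians, 24.2 and 27.2, were at the 192 isolated narrow distal sites that overlap an HSF1 or HSF2 site. The wider site kinds differ from the narrow ones in width as well as place. The wide sites, those in chains and those near coding starts were also not filtered for overlap with an HSF site. At widths of 201 to 299 bp the medians were 7.98 in A and 9.80 in M at the isolated distal sites, against 10.8 and 11.3 at the sites in chains of 3 or more and 10.0 and 13.9 at those near coding starts. At 24 to 100 bp they were 4.43 and 5.83, against 5.99 and 6.81 in chains and 8.50 and 10.3 near starts. The isolated distal sites were thus lowest at matched width also, in both phases.

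Signal in M was on average slightly above that in A. The log2 of M over A (log2 M/A), taken over the 7778 sites above 0 in both phases, had a median of 0.35 (95% interval 0.31 to 0.39), or 1.27-fold, and 62.5% of these sites were higher in M (61.4% to 63.6%). All other SOX2 sites had a median of 0.33 (0.30 to 0.35), so the 2 medians differed by 0.02 and their intervals overlap. The spread between sites was larger at the isolated narrow distal sites, with an SD of log2 M/A of 1.498 against 1.02 at the other sites. M was 2-fold or more above A at 2297 sites, or 29.5%, where the share over all SOX2 sites was 26.8%. M was 2-fold or more below A at 1030 sites, or 13.2%, where the share over all SOX2 sites was 10.0%. Across the 7778 sites, log2 M and log2 A had a Pearson r of 0.66 and an R2 of 0.435. R2 was 0.714 at the wide isolated sites and 0.663 at the distal sites in chains of 3 or more. These kinds include wider sites. Below 300 bp, R2 was 0.516 at sites in chains of 3 or more, with an SD of log2 M/A of 1.23. Near coding starts it was 0.446 with an SD of 1.31, and at isolated distal sites at an HSF site 0.725 with an SD of 1.12. An R2 near 0.435 was thus not particular to the isolated narrow distal sites. The sites share the same libraries and scaling, so r is given as a description.

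**Figure D1:**
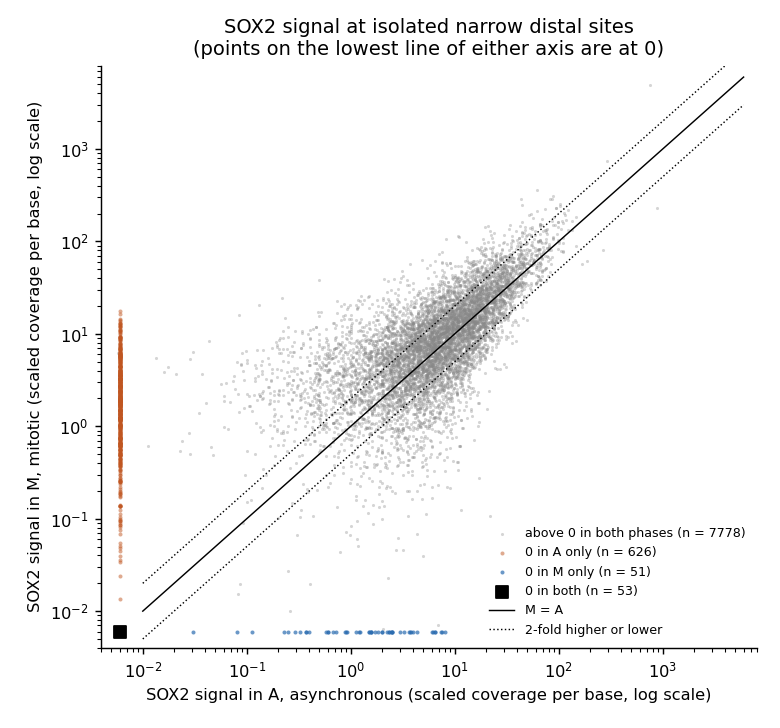
SOX2 signal in M against A at the 8508 isolated narrow distal sites, on log axes in scaled coverage per base, with 1 point per site. The 7778 sites above 0 in both phases spread more widely at low signal, and the 626 sites at 0 in A only (left edge) reach up to 17.8 in M, while the 51 at 0 in M only (bottom edge) reach 8.0 in A.

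The spread between sites narrowed as signal rose. In the quintile of sites with the lowest mean signal (up to 2.46), the SD of log2 M/A estimated from the quartiles was 1.87 over 1080 sites. The median counting error of a site, from the read numbers above, was 0.99. It is approximate, since those read numbers are lower bounds and reads were taken as independent though duplicates were kept. This error was taken over the 807 of these sites with at least 1 read in both phases, so it leaves out those with the fewest reads. In the quintile with the highest signal (17.5 and over) the SD and the counting error were 0.86 and 0.23, both over 1702 sites. The median log2 M/A was 0.53, 0.19, 0.23, 0.30 and 0.51 from the lowest to the highest quintile. Sites at 0 are missing from the ratio and made up 36.5% of the lowest quintile, so its median is not comparable with the others. From the next quintile to the highest, the share of sites higher in M went from 56.4% to 73.9%. The quintiles were cut on the mean of A and M, which contains M, so this trend is not independent of the cut.

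A signal of 0 in at least 1 phase was more frequent at these sites than over the other SOX2 sites, which include wider intervals. It occurred at 730 of the isolated narrow distal sites, or 8.58% (8.004% to 9.19%), beside 5.42% of all SOX2 sites and 1.32% of the other SOX2 sites. Of the 817 sites at 0 in the whole list, 89.4% were isolated narrow distal sites, which made up 56.4% of all SOX2 sites. Zeros also went with width, so shares at matched width are given below. Among the isolated narrow distal sites, 626 were at 0 in A only, 51 at 0 in M only and 53 at 0 in both. The 2 phases cannot be compared directly on this count, since 1 read weighed more in A and fewer reads lay behind A. A count of 0 reads allows up to 3 reads, which come to a signal of up to 1.5 in A and 0.412 in M. Among the 626 sites at 0 in A only, the M signal had a median of 1.83 (0.0134 to 17.8), and it was above 1.5 at 357 of them, or 57.0%. Among the 51 sites at 0 in M only, the A signal had a median of 1.58 (0.0302 to 8.0), and it was above 0.412 at 41.

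Sites at 0 became rarer with width. They made up 21.6% of the sites of 24 to 50 bp, 14.04% at 51 to 100 bp, 10.9% at 101 to 150 bp, 4.67% at 151 to 200 bp, 3.83% at 201 to 250 bp and 1.67% at 251 to 299 bp. The median signal went from 4.50 in A and 5.77 in M in the narrowest class to 8.72 and 10.7 in the widest. Median log2 M/A showed no such order, between 0.26 and 0.52. At 24 to 100 bp, 17.8% of the isolated distal sites were at 0 (16.3% to 19.5%), against 12.1% of those in chains of 3 or more (8.58% to 16.9%) and 7.96% of those near coding starts (4.96% to 12.54%). At 101 to 200 bp the shares were 7.61%, 4.52% and 1.47%. At 201 to 299 bp they were 2.91% (2.39% to 3.55%), 2.03% (0.99% to 4.14%) and 0.474% (0.0837% to 2.64%), with overlapping intervals. Just inside the width limit, the 1380 sites of 274 to 299 bp had medians of 8.72 in A and 10.7 in M. Just outside it, the 688 isolated distal sites of 324 bp had 9.91 and 12.8, so signal passed the limit without a large step. Those outside the limit were not filtered for overlap with an HSF site, so the 2 sets differ in more than width.

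**Figure D2:**
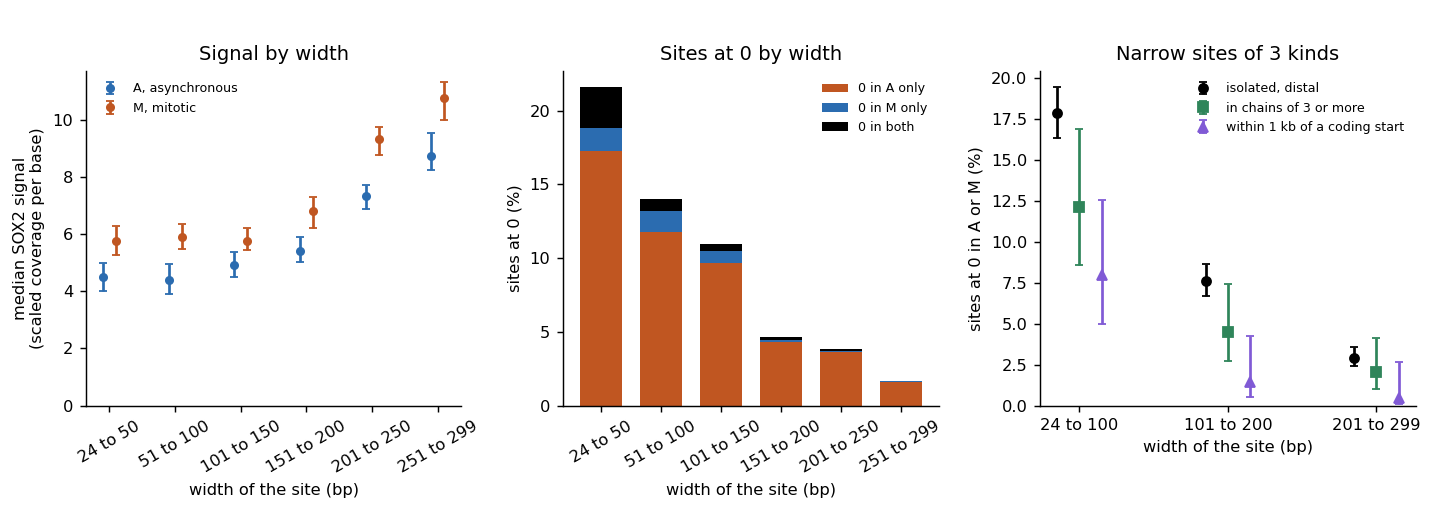
Left and centre, isolated narrow distal sites by width (bp), with median SOX2 signal (scaled coverage per base, bars are 95% intervals over sites) and the percent of sites at 0. Right, percent of sites at 0 in A or M for narrow sites of 3 kinds at the same widths, with Wilson 95% intervals. Signal is higher and zeros are rarer at wider sites, and 21.6% of the narrowest class is at 0.

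The SOX core CATTGT lay in 2133 of the isolated narrow distal sites, or 25.1%, against 9.80% of windows of equal width 2 kb upstream and 9.05% of those 2 kb downstream. The variant core CTTTGT lay in 33.1%, against 14.8% upstream, and the octamer ATGCAAAT in 6.90%, against 1.21%. Both strands were searched, and cores may lie within a composite. A composite element with at most 2 mismatches was found in 538 sites, or 6.32%, against 0.223% of upstream windows. Among the 15081 SOX2 sites as a whole the shares were 30.6% for CATTGT and 7.78% for the composite. When the space between an exact core and an exact octamer on the same strand was left free from 0 to 20 bases, 6 pairs had a space of 1 base and no other space had more than 3. In the 1519 sites of 100 bp or wider with a single CATTGT, 34.2% of the cores lay in the central of 5 equal parts of the site and 12.4% and 9.68% in the outermost.

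Sites with the SOX core and sites with the composite element differed in opposite directions from the rest. The 1913 sites with CATTGT and no composite had A and M medians of 6.85 and 10.1 with a median log2 M/A of 0.59 (0.53 to 0.67), and were higher in M at 70.5% of sites. The 538 sites with a composite had A and M medians of 3.50 and 4.05 with a log2 M/A of 0.12 (-0.02 to 0.22), and were higher in M at 54.0%. The 6057 sites with neither had 5.89 and 6.91, with a log2 M/A of 0.29 (0.25 to 0.33). Signal was at 0 in A or M at 12.6% of the composite sites, 5.33% of the core sites and 9.25% of the others. A closer match to the composite went with less signal. With 1 mismatch the 80 sites had medians of 2.49 in A and 3.55 in M, with 3 mismatches the 1578 sites had 5.10 and 5.67, and with 5 mismatches the 2098 sites had 6.99 and 9.60. Sites with 6 or more mismatches, which include the narrowest, had 6.00 and 8.05. The order of the motif classes was the same over all other SOX2 sites. Median log2 M/A there was 0.53 with the core, 0.23 with neither and 0.12 with the composite. The A medians there were 16.5, 13.7 and 10.7.

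The number of cores in a site went with the ratio. Median log2 M/A was 0.28 (0.24 to 0.32) without CATTGT, 0.52 (0.46 to 0.59) with 1 copy and 0.70 (0.49 to 0.89) with 2. For CTTTGT it was 0.23 (0.19 to 0.27), 0.50 (0.44 to 0.57) and 0.80 (0.64 to 0.92). Sites with an octamer had 0.10 (-0.02 to 0.22), against 0.37 (0.33 to 0.40) without. Counted in the upstream window instead of the site, 1 copy of CATTGT went with 0.40 (0.28 to 0.47) and none with 0.34 (0.31 to 0.38). The letters of the core read backwards, TGTTAC, went with 0.44 (609 sites), against 0.34 without them. GC content, width and repeats also moved with the ratio or the signal and were examined in strata. Core sites had the highest log2 M/A in each of 3 width classes, 3 GC classes and 2 classes of repeat content, from 0.46 to 0.76. Composite sites had the lowest A and M medians in all of these strata. Their log2 M/A was the lowest in all strata but 1, the sites of 101 to 200 bp, where it was 0.33 against 0.28 with neither motif. At the distal sites in chains of 3 or more the composite sites had the highest A median, 14.4. Its interval, 10.5 to 18.3, contains the core median of 13.1, and their M median was the lowest, 11.5 against 11.7 with neither motif. Composite sites were lowest in A and M at the wide isolated sites (10.4 and 11.7) and near coding starts (9.3 and 9.67). The same held for the 4 composite sites among the isolated narrow distal sites at an HSF site. The sites in chains were thus the only kind where composite sites were not lowest in A.

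**Figure D3:**
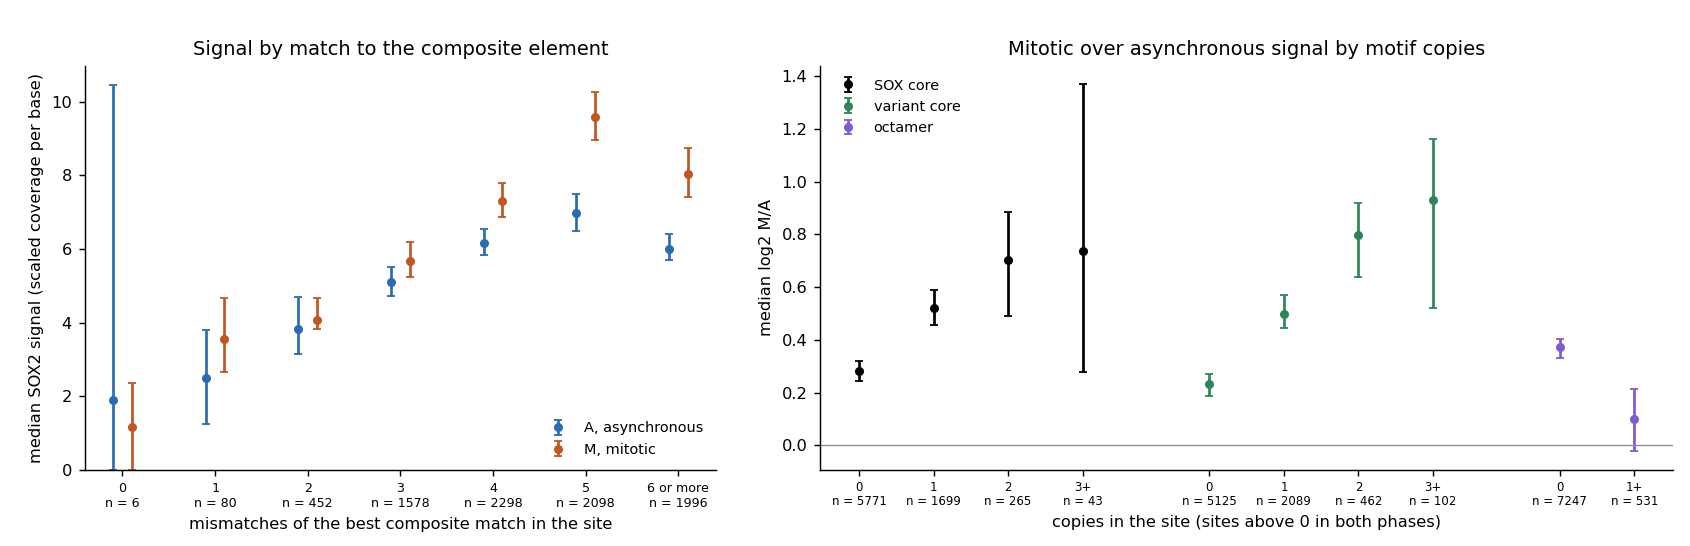
Left, median SOX2 signal (scaled coverage per base) by the number of mismatches of the best composite match in a site. Right, median log2 M/A by the number of copies of CATTGT (SOX core), CTTTGT (variant core) and ATGCAAAT (octamer). Bars are 95% intervals over sites, which for the 6 exact sites span all their values. Signal is lowest at the closest composite matches, and log2 M/A is 0.28 without a core and 0.70 with 2.

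The 6 sites with an exact composite had M signals of at most 2.37, and A signals of 0 to 10.5. The first, chr14:95758193-95758466, is intergenic, 122788 bp from the coding start of 4921530L21Rik, and had 10.5 in A and 2.37 in M. The second, chr15:59174344-59174567, is intergenic, 92355 bp from Mtss1, which encodes a membrane-shaping actin regulator, and had 2.68 in A and 2.33 in M. The third, chr3:99221316-99221439, is 32321 bp upstream of Tbx15, a T-box transcription factor gene, and had 2.33 in A and 0 in M. All 3 sequences are printed above. The other 3 ranged from 0 to 1.44 in A and from 0.346 to 1.77 in M. Every one of the 6 had an M signal below the median of all isolated narrow distal sites, and 5 of the 6 had an A signal below it.

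Base composition and repeats moved with the signal. From the lowest to the highest quintile of GC content (medians 38.4% and 53.2%), the median A signal went from 5.37 to 6.94, the median M signal from 5.80 to 9.10 and the median log2 M/A from 0.15 (0.10 to 0.23) to 0.45 (0.38 to 0.52). The 3338 sites without soft-masked bases, which mark repeats in the reference, had medians of 4.82 in A and 6.05 in M. The 463 sites with over 75% of their bases masked had 15.1 and 20.3. How far repeats alter the mapping of reads at these sites was not tested.

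Signal differed little between intergenic, intronic and exonic sites. Of the 8508 sites, 4150 were intergenic, 3401 in an intron of a coding gene, 544 in an intron of a non-coding gene and 413 overlapped an exon. Median A signal ranged over these classes from 5.68 to 6.26 and median log2 M/A from 0.30 to 0.39. By distance to the nearest coding start, 934 sites lay at 1 to 5 kb, 3993 at 5 to 50 kb, 2415 at 50 to 200 kb and 1166 further away. Median A signal was highest at 1 to 5 kb, 6.59 (5.96 to 7.20), and lowest at 50 to 200 kb, 5.17 (4.78 to 5.50). Sites at 0 in A or M made up 5.67% and 10.4% of these 2 classes. Median log2 M/A was 0.31 (0.22 to 0.40) in the closest class and 0.43 (0.33 to 0.51) in the farthest. In 530 chains of 2, both sites were isolated narrow distal sites, with a median gap of 5326 bp over the 457 pairs with a ratio at both. Neighbours had little in common across these pairs, with a Pearson r of 0.01 for log2 A, 0.08 for log2 M and 0.00184 for log2 M/A.

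Chromosome 11 stood apart in level. Its 486 sites had medians of 9.88 in A (8.71 to 10.95) and 11.1 in M (9.65 to 12.7), which in A is 1.65 times the median of all 8508. Other SOX2 sites on chromosome 11 were also high, at 20.2 in A, 1.41 times the median of such sites. On the 17 remaining chromosomes the medians of the isolated narrow distal sites were 5.05 to 6.41 in A and 6.36 to 7.65 in M. Chromosome 8 had the lowest log2 M/A, 0.13 (0.00 to 0.26), with 7.15 in A and 8.35 in M at 464 sites. Its other SOX2 sites had 0.35 (0.20 to 0.50). The X chromosome had the highest, 0.57 (0.40 to 0.73), with 6.98 in A and 10.0 in M at 214 sites. Median GC was 47.1% on chromosome 11, 46.0% on chromosome 8 and 43.9% on X, and 44.7% to 46.9% on the remaining 17. Without chromosomes 8, 11 and X, log2 M/A was 0.61 at core sites, 0.13 at composite sites and 0.30 at sites with neither.

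**Figure D4:**
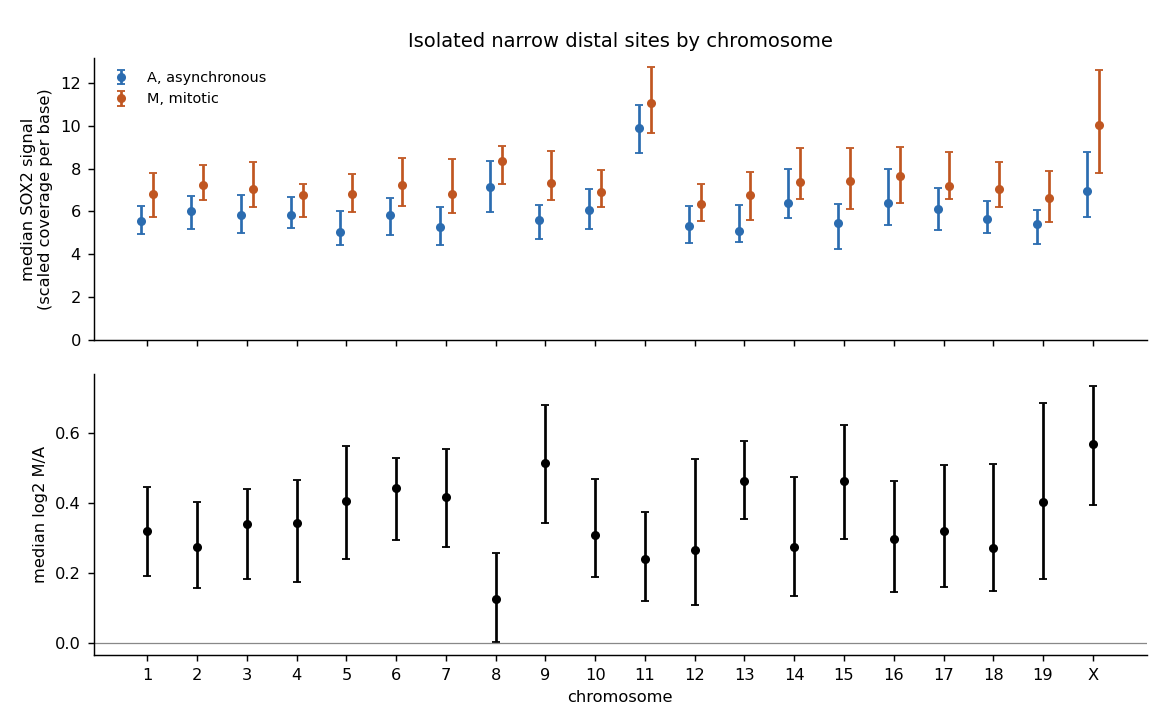
Isolated narrow distal sites by chromosome, with median SOX2 signal in A and M (scaled coverage per base, above) and median log2 M/A (below). Bars are 95% intervals over sites. Chromosome 11 is highest in A at 9.88, chromosome 8 has the lowest log2 M/A and X the highest.

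The 8508 sites were assigned to 5357 genes by the nearest coding transcript start, and 3516 genes had a single site. A nearest gene is a label of position and was not tested as a target. Auts2, a neurodevelopmental gene, had the most, with 12 sites and medians of 4.78 in A and 7.85 in M. Zfhx3 and Zfp608, both zinc finger genes, had 11 each. The proto-oncogene Myc had 10, with medians of 3.49 in A and 7.42 in M. Of its 9 ratios 8 were above 0, beside 62.5% over all isolated narrow distal sites.

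Core pluripotency factors maintain the undifferentiated state of embryonic stem cells. Of 21 such genes, 12 were nearest to 42 isolated narrow distal sites. Their A and M medians were 5.41 and 4.70, and their median log2 M/A was -0.42 (-0.85 to 0.20) over 38 sites, against 0.35 for all isolated narrow distal sites. M was the higher at 16 of the 38 (42.1%), beside 62.5% of all isolated narrow distal sites and 63.4% of all SOX2 sites. M was 2-fold or more above A at 7 (18.4%) and 2-fold or more below at 12 (31.6%), beside 26.8% and 10.0% of all SOX2 sites. Pou5f1, Nanog and the other 7 genes of the list had no such site nearest to them.

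A few genes held most of these 42 sites. Sox2, which encodes the factor itself, had 7 sites 136773 to 550373 bp from its start, with A from 0 to 9.06 and M from 0.399 to 9.51, and 1 of 6 ratios was above 0. Sall1, a zinc finger factor of stem cells and kidney development, had 7 sites with A from 0.781 to 35.3 and M from 0 to 9.47, and 1 of 6 ratios was above 0. Klf5, a Krüppel-like factor that supports self-renewal, had 7 sites, 4 of them higher in M. Mycn, a MYC family gene, had 7 sites, with 5 of 6 ratios above 0. Over all isolated narrow distal sites, 62.5% of the ratios were above 0. The sites of these genes lay on both sides of the median ratio, and groups of so few sites are given as values only.

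Other sites of this list were among its highest. At chr1:13132088-13132386, intergenic and 4925 bp from Prdm14, a regulator of naive pluripotency and germ cells, A was 30.3 and M was 34.9. At chr1:137418441-137418689, intergenic and 457993 bp from Nr5a2, an orphan nuclear receptor gene, A was 35.6 and M was 26.996. Klf4, one of the reprogramming factor genes, was nearest to chr4:55681427-55681650 at 148961 bp, with 11.6 in A and 48.1 in M.

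The OCT4-SOX2 target genes, a set of genes known to be driven by the pair, had 15 sites at 7 of 16 genes. Their A and M medians were 9.56 and 7.12, and their median log2 M/A was 0.43 (-1.05 to 1.20). Jarid2, a Polycomb partner, was nearest to 8 of them, the highest at chr13:44651430-44651553 with 29.0 in A and 46.8 in M. In an intron of Tet1, which encodes an enzyme that oxidises methylated cytosine, chr10:62865395-62865468 had 31.0 in A and 35.02 in M. Near Bmp4, a signalling ligand gene, chr14:46412600-46412748 had 15.8 and 23.0. Of the 14 sites with a ratio, 3 were 2-fold or more higher in M (21.4%) and 4 were 2-fold or more lower (28.6%), beside 26.8% and 10.0% of all SOX2 sites.

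The regulators of neural and early lineages had 66 sites at 27 of 45 genes, with A and M medians of 6.04 and 7.40 and a median log2 M/A of 0.15 (-0.18 to 0.55). The highest was chr2:116243386-116243509, 177547 bp from the homeobox gene Meis2, with 73.9 in A and 96.8 in M, and all of its bases were soft-masked. A 24-bp site in an intron of Meis1, chr11:18957649-18957672, had 35.04 in A and 96.65 in M. The LIM homeobox gene Lhx2 was nearest to chr2:38424593-38424666, with 20.1 in A and 42.1 in M, and the eye and forebrain gene Six3 to chr17:85487001-85487224, with 27.4 and 31.5. M was the higher at 35 of 59 sites of this list (59.3%), near the 62.5% of all isolated narrow distal sites and 63.4% of all SOX2 sites.

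The LIF, BMP, FGF and WNT signalling genes had 57 sites at 28 of 38 genes, with A and M medians of 5.84 and 7.23 and a median log2 M/A of 0.47 (0.03 to 0.93). M was 2-fold or more above A at 17 of 53 (32.1%) and 2-fold or more below at 6 (11.3%), near the 26.8% and 10.0% of all SOX2 sites. Il6st, which encodes the gp130 chain of the LIF receptor complex, was nearest to chr13:112440199-112440497, with 71.1 in A and 74.9 in M, and to chr13:112416399-112416697, with 43.8 and 90.25. Spred2, an inhibitor of RAS and ERK signalling, was nearest to chr11:19747524-19747797, with 46.0 and 68.1. Lif itself, the cytokine gene, was nearest to chr11:4302349-4302597, with 54.6 in A and 55.9 in M.

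The DNA methylation and chromatin regulators had 25 sites at 14 of 30 genes and the highest medians of the 6 lists, A 13.4 and M 14.5, with a median log2 M/A of 0.14 (-0.14 to 0.30) and none at 0. Chd1, a chromatin remodeller gene, was nearest to chr17:15680437-15680460, with 70.5 in A and 77.5 in M. Eed, a subunit of the Polycomb complex that methylates histone H3, was nearest to chr7:89997660-89997858, with 69.6 and 41.8. In an intron of the histone demethylase gene Kdm3a, chr6:71609143-71609441 had 46.8 and 25.1, and in an intron of Dnmt3l, a cofactor of DNA methyltransferases, chr10:78048273-78048421 had 32.9 and 31.5. Cell cycle and mitosis genes had 13 sites at 9 of 29 genes, with A and M medians of 6.90 and 3.95 and a log2 M/A of 0.36 (-1.17 to 1.00). Of the 12 with a ratio, M was 2-fold or more above A at 2 (16.7%) and 2-fold or more below at 5 (41.7%). Over all SOX2 sites these shares were 26.8% and 10.0%. The 4 highest sites of the list were near Cenpa (the centromeric histone), Ccnd3 (cyclin D3), Bub1b (a spindle checkpoint kinase) and Cdk1 (the mitotic kinase). Among these 4, M was 2-fold or more below A only at the Cdk1 site, with 14.6 in A and 6.91 in M.

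**Figure D5:**
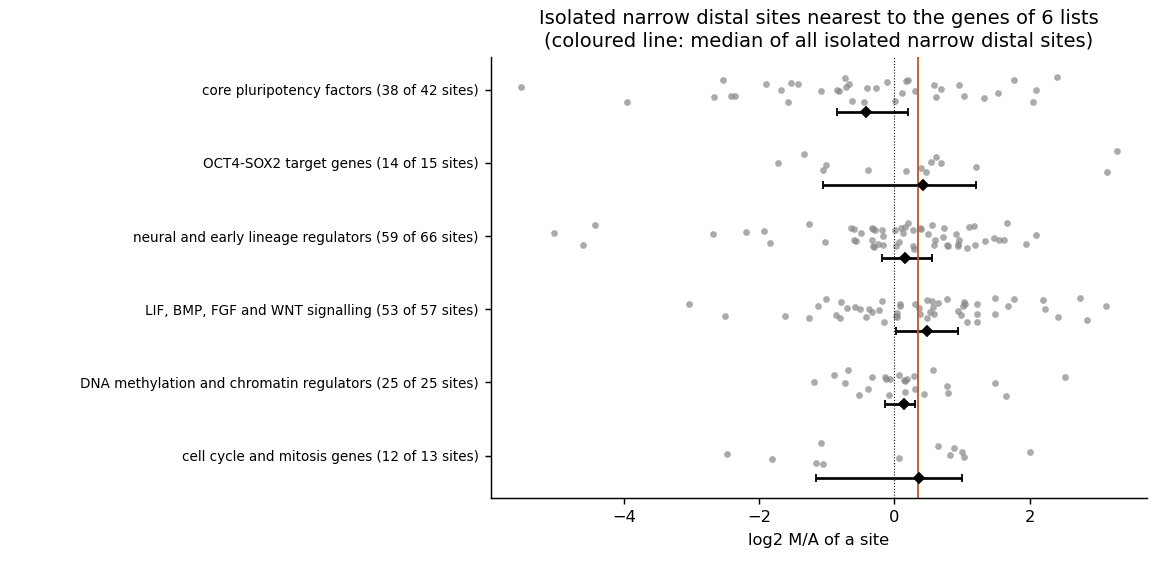
Ratio of M to A on the log2 scale at single isolated narrow distal sites (grey points) by the list of their nearest coding gene, with the median of each list (diamond, 95% interval over sites) and the median of all isolated narrow distal sites (vertical line, 0.35). The core pluripotency list has the lowest median, -0.42, and the intervals of the 6 lists overlap one another.

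The highest signals were not at genes of these lists. The first, chr2:5379155-5379278, lies in an intron of Camk1d, a calmodulin-dependent kinase gene, 241379 bp from the start of Ccdc3, and had 754 in A and 4907 in M. The second, chr9:3007427-3007475, is 2268 bp from Gm11168 with 87.8% of its bases soft-masked, and had 882 in A and 228 in M. The third, chr7:142405112-142405335, is intergenic, 17074 bp from Ctsd, a lysosomal protease gene, and had 293 in A and 746 in M. The other 5 of the 8 highest ranged from 62.2 to 103 in A and from 253 to 363 in M. M was above A at 7 of these 8, beside 62.5% of all isolated narrow distal sites and 73.9% of their highest signal quintile. The 8 were picked by the mean of A and M, so a high M itself brought a site into the group. CATTGT lay in 2 of them, beside 25.1% of all isolated narrow distal sites. These sites were not compared with lists of blacklisted or poorly mappable regions, so how much of such a signal is SOX2 was not tested.

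The largest M over A ratios among sites of at least median signal came from A values near the smallest step. At chr7:14049822-14049995, 60215 bp from Sult2a4, A was 0.0833 and M was 15.9, which is at least 116 reads. At chr7:108760475-108760573, 5617 bp from the olfactory receptor gene Olfr513, A was 0.131 and M was 20.5. The other 4 were nearest to C1qtnf7, Shroom3, Ifit1 and Tbl1xr1, with A of at most 0.500 and M of 14.7 to 37.8. Of the 6, 4 contain CATTGT, beside 25.1% of all isolated narrow distal sites, and so small a picked group is given as values only.

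The largest falls had low M and an A above the median. At chr2:75855888-75855986, in an intron of Agps, an ether lipid synthesis gene, A was 21.9 and M was 0.107. At chr10:81542923-81542946, in an intron of the G protein gene Gna11, A was 17.0 and M was 0.275. The other 4 had A of 15.3 to 20.6 and M of 0.708 to 1.52, and lay in introns of Zfp827, Nudcd3, Diaph2 and Cspg5. CATTGT was found in 1 of the 6, beside 25.1% of all isolated narrow distal sites.

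Of the sites at 0 in A, the highest M signal was 17.8 at chr15:81985397-81985445, an intergenic site of 49 bp with a CATTGT, 4857 bp from 1700029P11Rik, which is at least 129 reads in M against none in A. The next was at an exon of Dscam, a neural adhesion gene, with 16.4 in M, and the third was 487196 bp from Mef2c, a myocyte enhancer factor gene, with 14.7. Of the sites at 0 in M, the highest A signal was 8.0 at chr8:68254813-68254836, 24 bp wide and 21731 bp from Sh2d4a, which is at least 16 reads. The next had 7.5, in an intron of Pld5, and 7.30, near Kcne1, a potassium channel subunit gene. At 0 in A only were 4.97% of the sites with a core and no composite, 10.4% of those with a composite and 7.84% of those with neither. The median width of the 626 sites at 0 in A only was 99 bp, against 174 bp for all isolated narrow distal sites, and 7.67% of them were at least 50% soft-masked, against 13.99%.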

How the data were processed

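SOX2 CUT&Tag signal in asynchronous and mitotic wild type JM8 cells was analysed, with 2 libraries per phase. The values are coverage signal. The authors aligned reads to mm10 with Bowtie2, kept PCR duplicates, scaled coverage with deepTools by the reads of the Drosophila (dm6) spike-in, averaged the 2 libraries of a phase and deposited the mean over each site. The track bin size is not given in the sources used here. SOX2 sites came from published data, whereas those of HSF1 and HSF2 had been called against IgG. A spike-in scale near 1 in A and between 0.247 and 0.275 in M was read from the steps of the deposited signal. Read totals per library were not used.

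The log2 of M over A was taken at sites above 0 in both phases, with no pseudocount. Averages over libraries allow no test. The starts and exons are those of GENCODE M21 basic, and the sequence is RefSeq GRCm38.p6 on the chromosomes of the list. Motifs were searched on both strands of the interval, allowing 2 mismatches for the composite element (CATTGT, 1 base, ATGCAAAT).

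Sites named were the 8 with the highest mean signal, the 6 largest rises and falls of log2 M/A among sites at or above the median signal, the 3 highest at 0 in A and in M, the 4 highest of each gene list, and all with an exact composite. Genes with 7 sites of the pluripotency list and the genes with most sites were added after their values were seen, as were the undone spike-in scale, the reversed core letters and the motif classes without 3 chromosomes, with 1 added and at a mean signal of 1 or more. The sites and gene lists were chosen with earlier results of these data known. Functions were tested on simulated data. Python 3.11.15, numpy 2.4.6, pandas 2.3.3, scipy 1.17.1, pysam 0.24.0 and matplotlib 3.10.9 were used. Some of the sites that the naming rule gave are not reported here.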

Additional observations from a re-analysis of the deposited data

How the results depend on the processing

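No result changed its direction under the alternatives tried. The median log2 M/A of the isolated narrow distal sites (0.35) stayed within its interval under all alternatives without a change of scale except 0.1 added to both signals, which gave 0.44, with 64.5% of sites higher in M and a difference from the other SOX2 sites of 0.11. Adding 1 also gave 64.5% higher in M. That share was 66.4% at sites of at least median signal and 61.4% without sites of 50% or more soft-masked bases. The level of M over A rests on the spike-in scale. With the scale of M undone, an alternative chosen after the data were seen, the median was 2.21 to 2.36 and the share 94.9% to 95.5%, while the difference from the other SOX2 sites was unaltered by construction. The share of sites at 0 was 9.36% when signal below 0.1 was counted, 12.1% below a width of 200 bp and 6.92% below 400 bp. R2 was 0.413 on linear values, 0.507 as a squared rank correlation, 0.555 with 1 added and 0.412 without the top 1% of sites. The SOX core share was 49.95% with CTTTGT counted, 20.4% in the central 100 bp and 34.8% with 100 bp added on either side. The composite share was 1.01% with at most 1 mismatch, 0.0705% for an exact match and 7.23% with 100 bp added. With a mean signal of at least 1, log2 M/A was 0.59 at core sites, 0.07 at composite sites and 0.28 at the others, and with 1 added it was 0.56, 0.16 and 0.32. The cause of these shifts was not tested.

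Replicate spread, and leaving out a library, could not be examined in averaged tracks. No paired analysis was possible because the signal columns carry no replicate numbers. At low signal the ratio rests on few reads in A, and for sites below 50 bp the track bins exceed the site.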
